A study of Mus musculus with 8 samples.

Results

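Regions of accessible chromatin that were listed after treatment with 0.5 µM chromate, and at no other dose, are described here. They were chosen by presence and absence in 3 deposited region lists, 1 for each treated dose. Regions of the lists that overlapped by at least 1 bp were merged, and a merged region was kept if it came from the 0.5 µM list alone and did not lie on chromosome 15. This gave 1346 of 17890 merged regions, and each of the 1346 was a single region of the 0.5 µM list. They made up 14.3% of that list's 9437 regions off chromosome 15. Another 454 regions listed only at 0.5 µM lay on chromosome 15 and were left out by this rule.

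The cells were Hepa-1c1c7, an established mouse hepatoma line, exposed to potassium chromate for 72 h at 0.1, 0.5 or 1 µM or left untreated (0 µM). There were 8 libraries, 2 at each dose and 2 of untreated cells. ATAC-seq was used to find open chromatin. The 0.1, 0.5 and 1 µM lists held 14401, 11130 and 15894 regions, each with a position and a score, and the name of each list pairs its dose with the same untreated cells. No list has a replicate column, so replicate error cannot be given, no test between doses could be made, and the depth behind each region is unknown. The 95% intervals are exact Clopper-Pearson for shares and Newcombe for differences. They cover counting error only and treat the lists as independent, although all of them name the same untreated libraries. They also treat the regions of a set as independent. Of the regions listed only at 0.5 µM, 34.4% lay in 40 windows of 1 Mb, so the intervals are too narrow. The 1 µM libraries carry another label prefix (N503) than the rest (N502), which cannot be told apart from the dose. A region missing from a list is not shown to be closed at that dose.

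In ATAC-seq the Tn5 transposase inserts sequencing adapters where DNA is free of nucleosomes, which is mostly at promoters, enhancers and insulators. Many promoters of widely expressed mouse genes lie in stretches rich in CpG and carry GC boxes, bound by SP factors, and CCAAT boxes, bound by the trimeric factor NF-Y. Hexavalent chromium, the form of the metal in chromate, enters cells through anion transporters and is reduced there, which yields DNA adducts and reactive oxygen species.

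The regions with the highest scores at gene ends lay over promoters. The promoter windows printed here show what this sequence looks like. They are the 5 windows under the highest scores, together with those of Brca1 and Mki67, which are among those from the gene lists. Each is a RefSeq window of GRCm38.p6 (the assembly of mm10), 300 bases long, from 250 bases before the gene start to 50 after it, read 5′ to 3′ on the gene's strand. Capitals mark the CCAAT box on either strand (CCAAT or ATTGG). Nbr1 encodes a receptor of selective autophagy and lies on the plus strand at chr11:101552404-101552703. Brca1, a gene of DNA repair by homologous recombination, is its neighbour and runs the other way, at chr11:101551906-101552205. Ddx5 encodes an RNA helicase (minus strand, chr11:106788445-106788744) and its window holds no CCAAT box. Msh5 encodes a MutS homologue of meiotic recombination (minus strand, chr17:35046573-35046872). Zswim4 lies on the minus strand at chr8:84236993-84237292. Slx4ip, whose protein binds the nuclease scaffold SLX4, lies on the plus strand at chr2:136891918-136892217. Mki67, the gene of the proliferation antigen Ki-67, lies on the minus strand at chr7:135716330-135716629.
Nbr1: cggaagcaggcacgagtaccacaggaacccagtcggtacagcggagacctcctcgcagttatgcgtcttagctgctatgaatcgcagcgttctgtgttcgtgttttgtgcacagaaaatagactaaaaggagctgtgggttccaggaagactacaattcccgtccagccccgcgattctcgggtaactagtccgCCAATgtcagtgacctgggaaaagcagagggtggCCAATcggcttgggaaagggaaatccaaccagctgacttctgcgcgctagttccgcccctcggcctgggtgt
Brca1: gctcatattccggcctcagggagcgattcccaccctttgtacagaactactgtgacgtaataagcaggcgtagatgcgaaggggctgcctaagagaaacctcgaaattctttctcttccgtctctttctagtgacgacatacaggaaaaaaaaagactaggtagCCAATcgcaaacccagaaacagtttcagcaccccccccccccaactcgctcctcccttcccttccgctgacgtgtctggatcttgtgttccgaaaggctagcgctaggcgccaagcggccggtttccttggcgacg
Ddx5: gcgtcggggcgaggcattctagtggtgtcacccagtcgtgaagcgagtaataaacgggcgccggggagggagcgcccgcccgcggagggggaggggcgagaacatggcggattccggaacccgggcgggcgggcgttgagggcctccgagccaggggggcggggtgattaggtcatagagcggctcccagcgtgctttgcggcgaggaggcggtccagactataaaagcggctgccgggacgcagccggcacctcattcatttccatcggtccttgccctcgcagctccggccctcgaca
Msh5: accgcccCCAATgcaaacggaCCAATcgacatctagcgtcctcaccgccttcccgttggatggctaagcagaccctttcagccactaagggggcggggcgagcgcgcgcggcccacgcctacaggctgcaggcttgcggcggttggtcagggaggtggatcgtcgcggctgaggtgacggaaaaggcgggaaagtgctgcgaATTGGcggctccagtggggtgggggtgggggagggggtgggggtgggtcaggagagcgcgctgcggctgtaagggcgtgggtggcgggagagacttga
Zswim4: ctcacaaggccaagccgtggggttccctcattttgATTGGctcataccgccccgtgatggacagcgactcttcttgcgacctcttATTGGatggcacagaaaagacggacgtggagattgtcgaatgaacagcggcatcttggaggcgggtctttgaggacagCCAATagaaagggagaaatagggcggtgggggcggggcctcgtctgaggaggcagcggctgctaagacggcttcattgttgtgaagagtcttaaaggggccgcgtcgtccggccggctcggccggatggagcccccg
Slx4ip: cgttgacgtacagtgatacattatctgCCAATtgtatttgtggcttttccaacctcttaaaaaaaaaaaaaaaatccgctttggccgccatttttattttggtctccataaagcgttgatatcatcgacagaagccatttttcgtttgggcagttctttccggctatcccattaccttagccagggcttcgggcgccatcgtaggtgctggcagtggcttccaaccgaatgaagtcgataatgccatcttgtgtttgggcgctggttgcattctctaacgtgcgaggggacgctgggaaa
Mki67: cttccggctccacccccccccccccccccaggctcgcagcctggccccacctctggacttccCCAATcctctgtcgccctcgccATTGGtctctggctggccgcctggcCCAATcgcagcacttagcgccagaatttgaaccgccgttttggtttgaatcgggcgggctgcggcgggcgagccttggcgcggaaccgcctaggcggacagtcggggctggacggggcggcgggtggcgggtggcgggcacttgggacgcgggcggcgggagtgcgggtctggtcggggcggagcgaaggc

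These windows held 2 CCAAT boxes in Nbr1, 1 in Brca1, 0 in Ddx5, 3 in Msh5, 3 in Zswim4, 1 in Slx4ip and 3 in Mki67. The windows of Ern1, Pgam1 and E2f1, also from the gene lists and not printed, held 0 each. The printed windows are therefore not a measure of how common the box was. The printed windows differed in base composition. G and C made up 46.3% of the Slx4ip window, which had a CCAAT box and none of the other 11 motifs searched, and 72.7% of the Mki67 window, which also held 4 GC boxes. The Ddx5 window held 4 GC boxes and a TATA match in place of the CCAAT box.

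Across all promoters under the regions listed only at 0.5 µM, the CCAAT box was present in 146 of 286 protein-coding windows (51.0%, 95% interval 45.1 to 57.0). The share was 36.9% (31.2 to 42.9) of the 279 windows under regions listed only at 0.1 µM and 39.6% (35.7 to 43.5) of the 627 under regions listed only at 1 µM, and 38.5% of all 20494 windows off chromosome 15. Other windows under regions of the 0.5 µM list had shares of 52.2% (47.1 to 57.4) under regions listed at 0.5 and 1 µM, 43.6% (33.4 to 54.2) under those at 0.1 and 0.5 µM, and 47.6% (45.6 to 49.5) under those at every dose. Under regions listed at 0.1 and 1 µM but not at 0.5 µM, 36.7% (32.7 to 40.8) of windows had the box. The interval of the set listed only at 0.5 µM lay above those of the 3 sets not listed at 0.5 µM and overlapped those of the other 3 sets listed there, so the share is not particular to it. Windows of neighbouring starts can share bases, so the intervals are too narrow, and a match of letters is not a bound site.

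**Figure D1:**
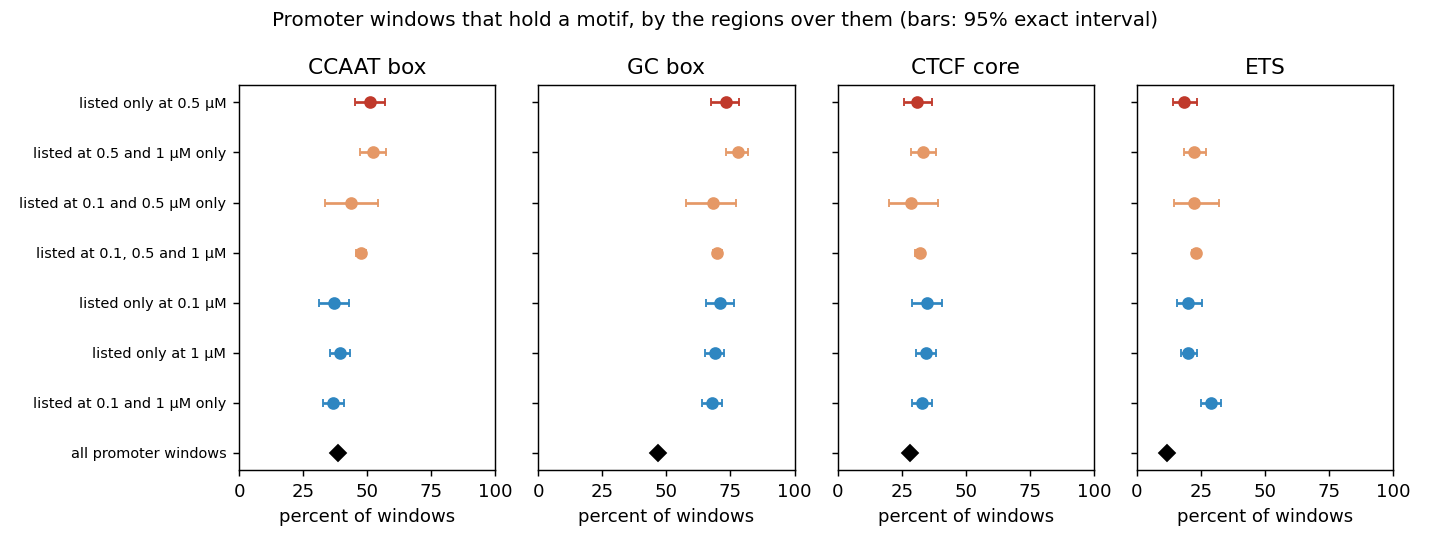
Percent of protein-coding promoter windows (x axis) that hold the CCAAT box, the GC box, the CTCF core or the ETS motif, by the regions over them (rows), with 95% exact intervals. Red is the set listed only at 0.5 µM, orange the other sets listed at 0.5 µM, blue the sets not listed at 0.5 µM, and black all windows. In the CCAAT panel the red point stands at 51.0%, and the blue points lie between 36.7% and 39.6%.

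No other motif had a higher share in every set listed at 0.5 µM than in every set not listed there. In all, 12 motifs were searched on both strands, and matches of different motifs may share bases. None was singled out beforehand, so the CCAAT box stands out as 1 of 12 looked at. The GC box (GGGCGG) was in 73.1% of the windows under regions listed only at 0.5 µM (67.5 to 78.1), against 71.0% (0.1 µM only), 68.9% (1 µM only) and 46.5% of all windows. The core of the CTCF motif (CAGNNGGC), the insulator protein named in the title of the series, was in 31.1% (25.8 to 36.8), against 34.8%, 34.4% and 28.2%. The NRF1 motif (CGCNTGCG) was in 22.4%, against 16.1%, 21.4% and 11.2%, and the ETS motif (CCGGAAG) in 18.5%, against 20.1%, 20.1% and 11.7%. For these 4 motifs the intervals of the dose-only sets overlapped. The set listed only at 0.5 µM had a low share of the AP-1 motif (TGANTCA), in 7 of 286 windows or 2.45% (0.990 to 4.98), against 4.66% (2.504 to 7.836) at 0.1 µM only, 7.18% (5.28 to 9.49) at 1 µM only and 7.08% of all windows. Its interval lay below that of the 1 µM set and overlapped that of the 0.1 µM set. It also overlapped those of the other sets listed at 0.5 µM, with 4.22% (0.5 and 1 µM), 5.32% (0.1 and 0.5 µM) and 4.97% (every dose). The core of the xenobiotic response element (GCGTG), bound by the aryl hydrocarbon receptor, was in 62.6% (56.7 to 68.2), against 53.4% (47.4 to 59.4), 55.2% (51.2 to 59.1) and 38.8%. The antioxidant response element (TGACNNNGC) was in 11.5% (8.08 to 15.8), against 17.2% (13.0 to 22.2), 17.5% (14.7 to 20.8) and 13.0%. The TATA motif (TATAAA) had the reverse order of the CCAAT box. Its share was 4.55% (2.44 to 7.65) in the set listed only at 0.5 µM and 3.96% to 5.32% in the other sets listed there. It was 6.09% to 9.22% in the sets not listed at 0.5 µM, whose intervals overlapped that of the 0.5 µM only set. Of all windows, 12.7% held the TATA motif, a higher share than in any of the sets. For CRE (TGACGTCA), the E-box (CACGTG) and MRE (TGCNCNC), the intervals of the dose-only sets overlapped.

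Most promoters under regions listed only at 0.5 µM were rich in CpG, but a minority of the regions lay over a promoter. Promoter windows were compared for the 1294 regions that lie on chromosomes with windows in the table, and the remaining 52, on chromosome 18, were not used here. Of the 1294, 245 (18.9%, 16.8 to 21.2) overlapped a protein-coding promoter window, against 9.72% (8.59 to 10.9) of those listed only at 0.1 µM, 17.1% (15.8 to 18.4) of those only at 1 µM and 36.1% (34.9 to 37.4) of those listed at every dose. The 286 windows belonged to 263 genes, and 19 regions lay over windows of at least 2 genes. The median G and C content of the windows was 62.7%, against 56.7% of all windows, and the observed CpG count was above 0.6 of that expected from base composition in 84.6%, against 76.0%, 78.6% and 81.1% in the 0.1 µM only, 1 µM only and all-dose sets and 48.0% of all windows. For regions listed at 0.5 and 1 µM, 0.1 and 0.5 µM, and 0.1 and 1 µM this share was 85.2%, 81.9% and 83.0%. Of the 375 regions at a gene end in this comparison, 292 (77.9%) lay within 1 kb of a start, so most gene ends were starts. Among the 334 regions with a start within 1 kb, 138 had their midpoint more than 50 bp upstream of it, 81 within 50 bp and 115 more than 50 bp downstream.

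By their deposited values the regions were weak and narrow. Score and width belong to the measurements that chose the members, so they are descriptions only. The score, given in whole numbers from 4 upward, has no stated scale. Its quartiles were 6, 7 and 9 among the regions listed only at 0.5 µM, with a highest value of 29, while the median of the whole 0.5 µM list off chromosome 15 was 10. In the list, 252 of the regions (18.7%) ranked in the upper 50% by score and 1 in the upper 10%, and 171 (12.7%) had the lowest score, 4. Widths ran from 199 to 746 bp with a median of 239 bp, against 325 bp in the whole list. Regions listed only at 0.1 µM and only at 1 µM were also weak and narrow, with median scores of 7 and 9 and median widths of 240 and 254 bp.

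The border of the rule was thin for some regions. A region at an end of Rptor, which encodes a subunit of the growth kinase complex mTORC1 (chr11:119603192-119603392, score 7), touched a 1 µM region without sharing a base. The region near Snai1, a transcription factor of epithelial-mesenchymal transition (chr2:167543661-167543932, score 9), was 1 bp from a 1 µM region. In all, 20 members had gaps of 1 to 50 bp. On the other side of the border, 40 regions of the 0.5 µM list were left out for an overlap of under 50 bp, such as chr4:146521283-146521501 (score 7) with 5 bp and chr19:12518209-12518407 (score 7) with 7 bp.

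The gap to the nearest 0.1 or 1 µM region varied widely. The median gap to the nearest 0.1 or 1 µM region was 15.2 kb, and 264 (19.6%, 17.5 to 21.8) lay within 1 kb of one, 590 (43.8%) within 10 kb and 1144 (85.0%) within 100 kb. The nearest region was a 1 µM one for 885 (65.8%) and a 0.1 µM one for 458, with 3 at equal distance. For regions listed only at 0.1 µM and only at 1 µM, the median gap to the nearest region of another list was 24.2 and 18.1 kb, and 15.9% (14.5 to 17.4) and 17.4% (16.1 to 18.7) lay within 1 kb. These gaps also depend on the length of the other lists, which is greatest for the 0.5 µM set. The most isolated were regions at ends of Sh3bp5 (1467 kb), Mmgt1 (1337 kb) and Ctnnal1 (932.9 kb).

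**Figure D2:**
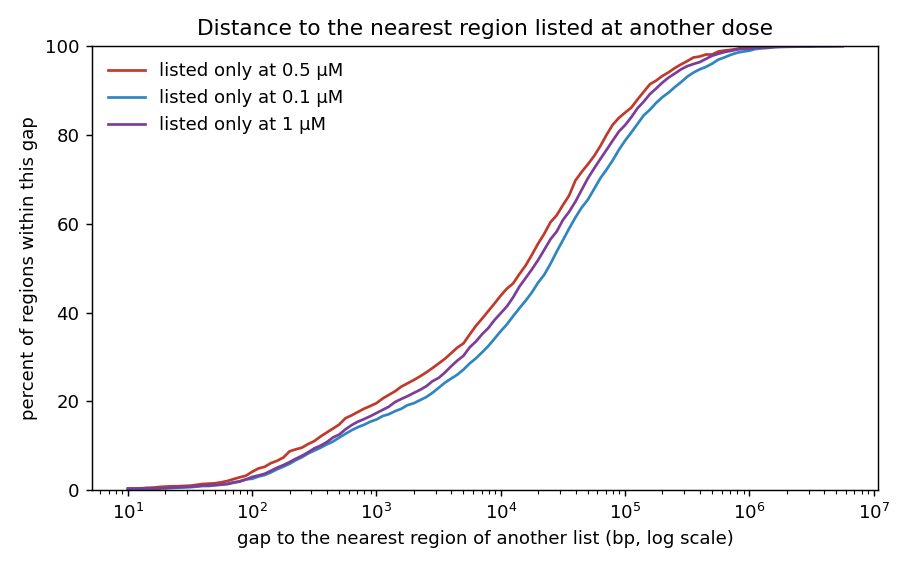
Cumulative percent of regions (y axis) whose gap to the nearest region of another list is at most the value on the x axis (bp, log scale), for the sets listed only at 0.5 µM, only at 0.1 µM and only at 1 µM. The curve of the 0.5 µM set lies to the left, with 19.6% of regions within 1 kb, against 15.9% and 17.4%.

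Of the 10 strongest regions at gene ends, 9 had gaps of 28.5 to 117.9 kb to the nearest region of another list. The highest score, 29, belonged to chr11:101552458-101552988, over the start of Nbr1 and within 1 kb of that of Brca1, 74.7 kb from the nearest 0.1 or 1 µM region. A weaker neighbour (chr11:101551926-101552155, score 6) covered 230 bases of the Brca1 window printed above. The region over the start of Ddx5 and near an end of Cep95 (chr11:106788297-106788662, score 23) was the exception, with a 0.1 µM region 90 bp away. That of Msh5 (chr17:35046712-35046983, score 22) was 117.9 kb and that of Zswim4 (chr8:84237097-84237371, score 21) 33.0 kb from another list. The region at the ends of Slx4ip and Mkks, a chaperonin-like gene of cilium biology, had score 20 (chr2:136891936-136892314, gap 28.5 kb). Next came Klhl26 (chr8:70476959-70477345, score 19), Stk11, which encodes the AMPK-activating kinase LKB1 (chr10:80115455-80115732, score 19), and Mrpl10, a mitochondrial ribosomal protein gene, with Lrrc46 (chr11:97041279-97041698, score 18). The sorting nexin gene Snx11 (chr11:96777472-96777812, score 18) and Casc3, a core gene of the exon junction complex (chr11:98809614-98809956, score 17), completed the 10. Chromosome 11 held 5 of these 10 regions.

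Inside genes the highest scores were in Itgb6, an integrin subunit gene (chr2:60627542-60627887, score 21), and Capn2, a calpain protease gene (chr1:182489889-182490179, score 20). Scores of 17 were found in the mitotic kinase gene Nek6 (chr2:38546255-38546607), in the tubulin gene Tuba8 (chr6:121217186-121217430) and in Mcl1, an anti-apoptotic gene of the BCL2 family. The last, chr3:95658558-95658876, overlapped the Mcl1 promoter window by 213 bases, although its midpoint fell into the inside class. Between genes the highest scores were 38.8 kb from Eed, a Polycomb subunit gene (chr7:90019641-90019879, score 19), and 5.50 kb from Pura, 23.3 kb from Bcas1, 94.2 kb from Uchl5 and 2.43 kb from Irf2bp2 (score 16 each).

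The regions listed only at 0.5 µM were split almost evenly over gene ends, gene bodies and the space between genes. A region was put at a gene end if its midpoint lay no more than 1 kb from one of the ends of a protein-coding gene. Gene ends held 387 (28.8%, 26.4 to 31.2), gene bodies 470 (34.9%, 32.4 to 37.5) and the space between genes 489 (36.3%, 33.8 to 39.0). At gene ends the share was 17.2% (15.7 to 18.7) for the regions listed only at 0.1 µM, 24.3% (22.9 to 25.8) for those only at 1 µM and 39.1% (37.9 to 40.3) for those listed at every dose. The 0.5 µM set was above the 0.1 µM set by 11.6 percentage points (8.80 to 14.4) and above the 1 µM set by 4.43 points (1.64 to 7.28), while it differed from the all-dose set by −10.4 points (−13.0 to −7.62). The share inside genes was within 0.0202 points (−3.09 to 3.18) of that of the 0.1 µM set. Neighbouring regions are not independent, so these intervals are too narrow.

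Width moved with location and was held in classes. Under 220 bp the share at gene ends was 26.0%, against 15.8% (0.1 µM only) and 23.8% (1 µM only). From 220 to 300 bp it was 29.2%, against 15.9% and 23.2%, and from 300 bp up 32.2%, against 21.8% and 26.4%. The order of the sets was the same in each class, but the intervals of the 0.5 and 1 µM sets overlapped in all 3 classes (22.2 to 30.2 and 21.1 to 26.6, 25.4 to 33.2 and 21.1 to 25.5, and 27.0 to 37.8 and 23.7 to 29.3, from narrow to wide).

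**Figure D3:**
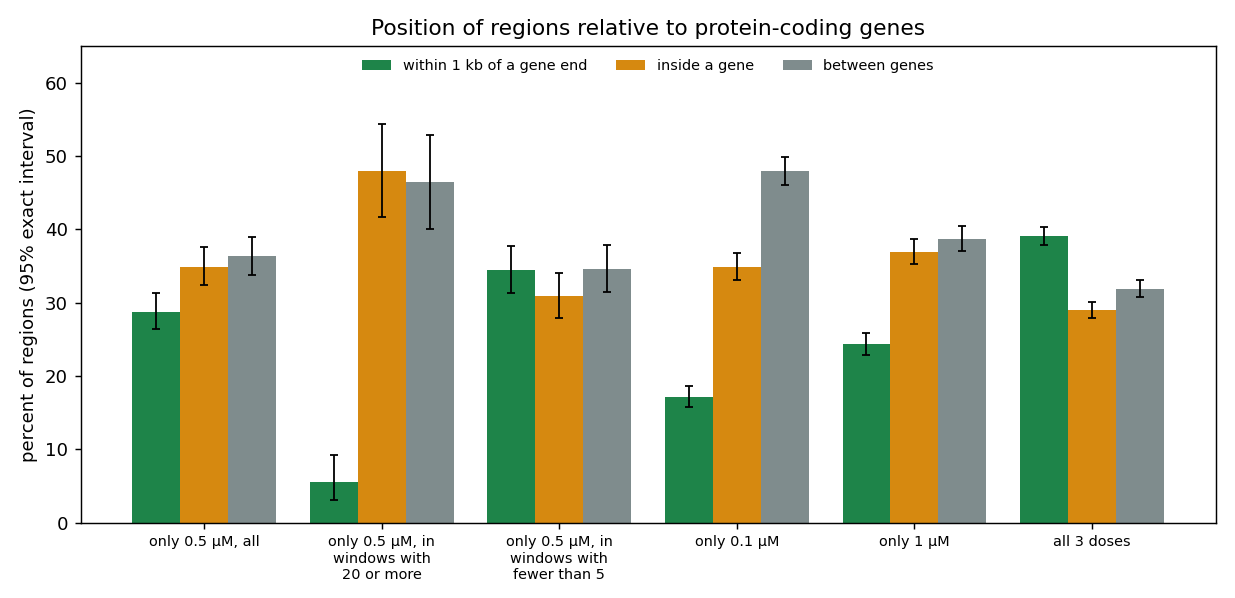
Percent of regions (y axis, bars with 95% exact intervals) within 1 kb of a gene end, inside a gene or between genes, for all regions listed only at 0.5 µM, for those in 1 Mb windows with at least 20 or fewer than 5 of them, and for the sets listed only at 0.1 µM, only at 1 µM and at all 3 doses. Gene ends took 5.60% in the fullest windows and 34.4% in windows with fewer than 5.

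The regions were spread unevenly over the chromosomes. Chromosomes 2, 1 and 17 held 216, 204 and 197, or 45.8% of the set, while they held 32.8% of the 0.5 µM list, 25.8% of the set listed only at 0.1 µM and 27.3% of that only at 1 µM. Of all 0.5 µM regions on chromosome 17, 26.5% (23.3 to 29.8) were listed at no other dose, followed by 24.3% (20.4 to 28.6) on chromosome 11 and 21.4% (18.9 to 24.0) on chromosome 2. The lowest shares were 6.46% (4.14 to 9.54) on chromosome 16, 6.57% (4.37 to 9.41) on chromosome 13 and 6.86% (3.59 to 11.7) on chromosome 12. The regions of the 0.1 µM list that were listed at no other dose made up 16.5% (13.9 to 19.5) on chromosome 17 and 21.5% (17.96 to 25.32) on chromosome 11. Those of the 1 µM list made up 23.2% (20.4 to 26.2) and 26.6% (23.1 to 30.3) there. On chromosome 2 the shares were 20.1% (17.8 to 22.6) for the 0.1 µM list and 24.5% (22.2 to 26.9) for the 1 µM list. The shares on chromosomes 11 and 2 were thus not highest at 0.5 µM.

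**Figure D4:**
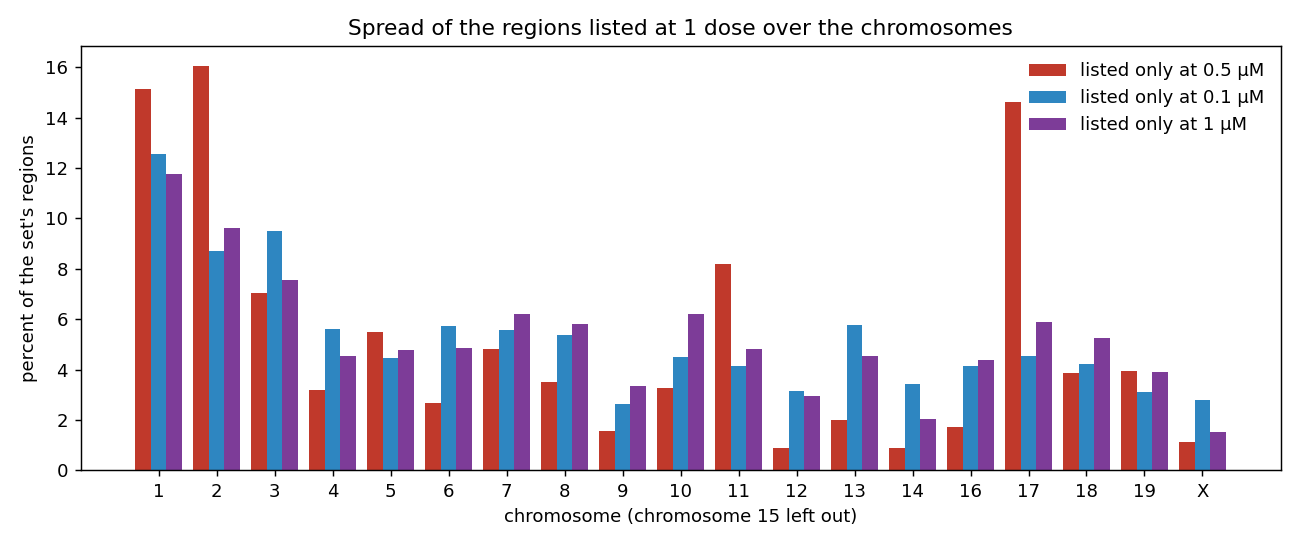
Percent of each set's regions (y axis) on each chromosome (x axis), for the sets listed only at 0.5 µM, only at 0.1 µM and only at 1 µM. The 0.5 µM bars stand out on chromosomes 2, 17 and 11, with 16.0%, 14.6% and 8.17% of the set.

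A minority of the regions was gathered in a few stretches, while 883 lay in windows with fewer than 5. The genome was cut into windows of 1 Mb, of which 605 held a region listed only at 0.5 µM and 371 held a single one. Windows with at least 5 numbered 40 and held 463 regions (34.4%), and 8 windows with at least 20 held 250 (18.6%). Windows with at least 5 regions of their own held 16.8% of the set listed only at 0.1 µM (77 windows) and 30.5% of that only at 1 µM (160 windows). The fullest were chromosome 1 at 132 to 133 Mb with 51, chromosome 17 at 5 to 6 Mb with 49, chromosome 2 at 167 to 168 Mb with 32 and chromosome 1 at 83 to 84 Mb with 29. Chromosome 17 at 7 to 8, 8 to 9 and 9 to 10 Mb held 25, 23 and 20, and chromosome 2 at 168 to 169 Mb held 21. The sets listed only at 0.1 µM and only at 1 µM reached at most 12 and 22 regions in a window, and 0 and 2 windows held 20 or more.

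The other sets also had their fullest windows there. The fullest window of the 0.1 µM set was chromosome 17 at 9 to 10 Mb, and those of the 1 µM set chromosome 1 at 132 to 133 Mb and chromosome 2 at 167 to 168 Mb, with 22 regions each. At chromosome 1, 132 to 133 Mb, the 0.1, 0.5 and 1 µM lists held 26, 70 and 37 regions in all, and at chromosome 17, 5 to 6 Mb, 21, 79 and 43. Smaller groups lay on chromosome 2 at 30 to 31 Mb (15 regions) and on chromosome 11, where 9 windows held 5 to 7 each. The 40 windows were chosen by their count of 0.5 µM regions, so the list totals in them are not independent of the rule.

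The regions in the fullest windows were placed differently from the others. In windows with at least 20, 14 of 250 lay at a gene end (5.60%, 3.10 to 9.22), 48.0% inside genes and 46.4% between genes. The 250 regions share 8 windows, so their positions are not independent and the intervals given for them are too narrow. Of the 883 regions in windows with fewer than 5, 304 (34.4%, 31.3 to 37.7) lay at a gene end. Promoter windows were overlapped by 2 of 250 (0.800%, 0.0970 to 2.86), against 213 of 848 (25.1%, 22.2 to 28.2). The median score was 7 in both, the median width 247 and 237 bp, and the median gap to another list 4.18 and 22.2 kb. Without the 40 windows, the gene end share was above that of the 0.1 µM set by 17.1 points and above that of the 1 µM set by 9.45 points. This comparison was added after the data had been seen. The 40 windows were chosen by their count of the set's own regions, of which 17.9% lay at a gene end. Leaving these windows out removed 34.4% of the set, but 3.81% of the 0.1 µM set and 7.27% of the 1 µM set. The larger differences therefore depend in part on the choice of windows, and no conclusion is drawn from them.

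Joined by gaps of at most 100 kb, 11 runs of at least 8 regions held 243 regions (18.1%) over 4.33 Mb. This description was also added after the data had been seen. Flanks of the same length as the run on each side, which in places reach into another run, held 80. The runs held 148, 394 and 246 regions of the 0.1, 0.5 and 1 µM lists, and the flanks 124, 206 and 216. By the joining rule, no region of the set can lie within 100 kb of a run's edge. The 243 regions are also among the 394. Counts of the set and of the 0.5 µM list in runs and flanks are therefore not independent of the rule. Inside the runs there were 87 regions listed at every dose, so the stretches also held chromatin that was listed at the other doses.

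The largest run was chr1:132292423-132968989, 676.6 kb with 50 regions, from Klhdc8a to Lrrn2. Nfasc, which encodes the axonal adhesion protein neurofascin, held 15 of them, Lrrn2 6 and the neural adhesion gene Cntn2 3. The 0.1, 0.5 and 1 µM lists held 24, 67 and 30 regions in the run and 9, 11 and 14 in its flanks. The second, chr17:5323246-6172736, ran over 849.5 kb with 44 regions, of which the palmitoyltransferase gene Zdhhc14 held 14, the inositol phosphatase gene Synj2 6 and the sorting nexin gene Snx9 4. The third, chr2:167485866-168385231, held 36 over 899.4 kb, among them 3 in Ptpn1, the gene of the insulin receptor phosphatase PTP1B. This run also held 30 regions listed at every dose.

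The densest runs were short. At chr1:83094755-83226163, 29 regions lay in 131.4 kb with a median spacing of 3.41 kb, 10 of them in Daw1, a gene of cilium assembly, and 1 in Ccl20, a chemokine gene. Its flanks held 0 regions of the set and 6, 2 and 6 of the 0.1, 0.5 and 1 µM lists, against 18, 46 and 38 in the run. Most of each flank lay within 100 kb of the run, where the joining rule allows no region of the set. At chr17:7198319-7277037, 17 regions lay in 78.7 kb, all inside Rps6ka2, the gene of the ribosomal S6 kinase RSK3. The lists held 4, 24 and 18 regions in that run, and its flanks held 0, 0 and 3. These flanks were shorter than 100 kb, so the joining rule left no region of the set in them. The run at chr17:9754792-10185733 held 13 regions and no protein-coding gene. At chr2:30587249-30795367 there were 10 regions, with 1, 12 and 2 regions of the 0.1, 0.5 and 1 µM lists.

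**Figure D5:**
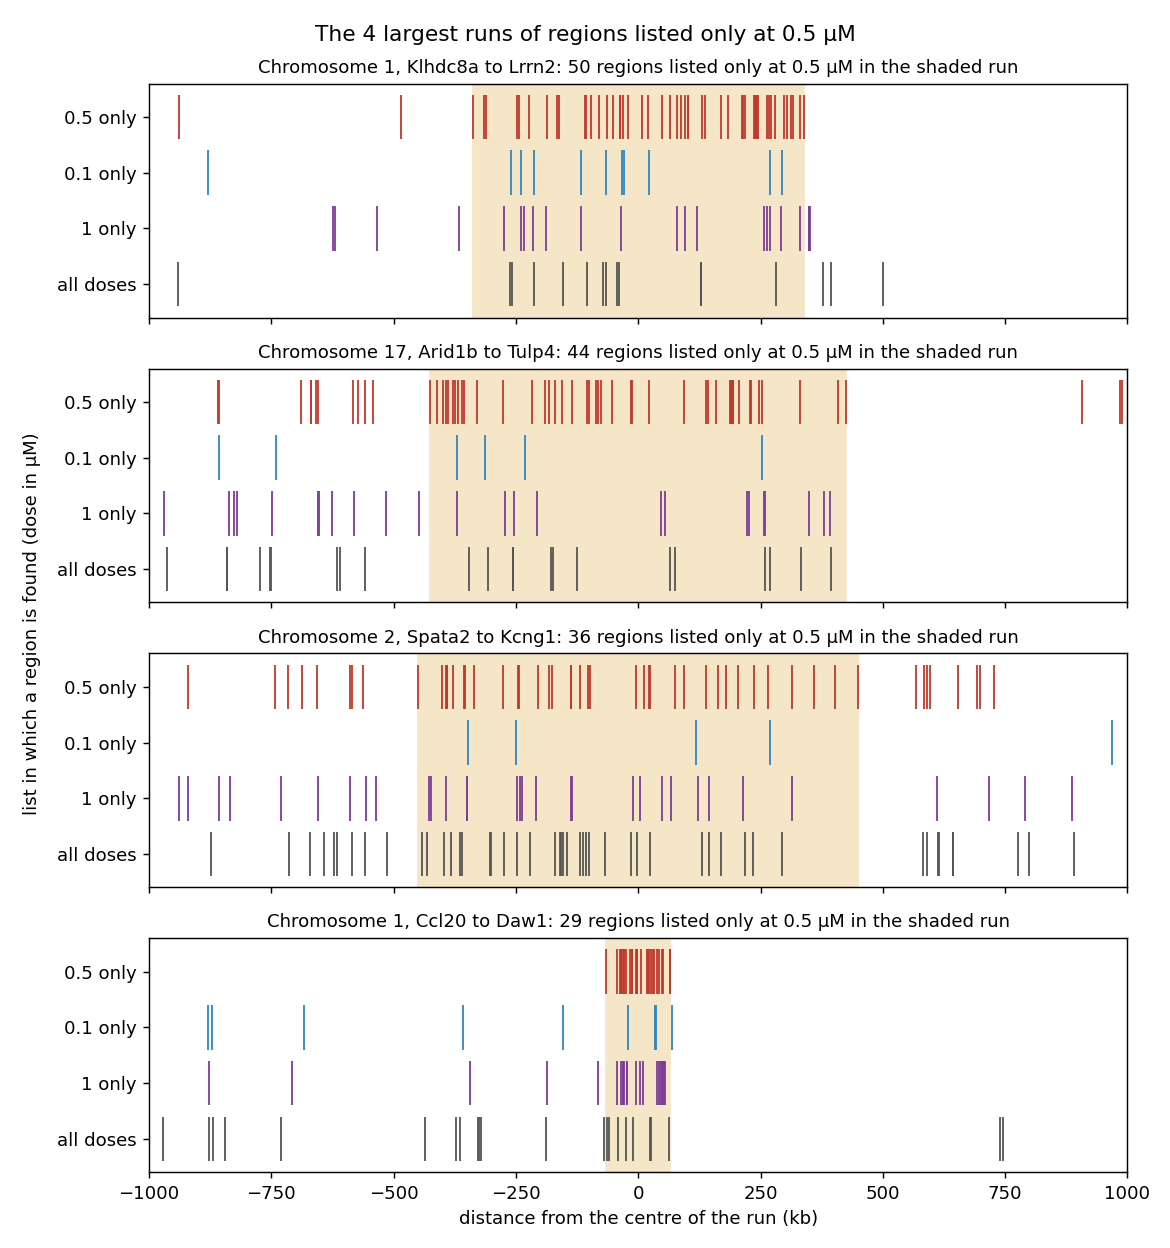
Position of each region (tick marks) around the centre of the 4 largest runs (x axis, kb; shaded, the run), in rows for the sets listed only at 0.5 µM, only at 0.1 µM, only at 1 µM and at all doses. The runs hold 50, 44, 36 and 29 regions listed only at 0.5 µM, and ticks of the other sets fall within them too.

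By gene, 21 of the 774 protein-coding genes with a region of the set in the body or within 1 kb held at least 3. Most of the richest lay in the runs. Rps6ka2 (214.3 kb) held 17, with 4, 24 and 21 regions of the 0.1, 0.5 and 1 µM lists. Nfasc (177.2 kb) held 15, with 7, 19 and 7, and Zdhhc14 (261.3 kb) 14, with 6, 22 and 11. Arid1b, a subunit gene of the SWI/SNF chromatin remodelling complex (353.4 kb), held 11, with 10, 25 and 20. Daw1 held 10, Synj2 7, Lrrn2 6 and the phosphodiesterase gene Pde10a 6. The transcription factor gene Nfatc2 held 5, as did Alad, a gene of heme synthesis, whose 14.1 kb carried 5, 11 and 9 regions of the lists. Itgb6, Ptpn1, Snx9, T2, Zfp981 and Zfp993 held 4 each, and Bcar3, Cntn2, Zfp236 and Zmynd8 3 each. The zinc finger genes Zfp981 and Zfp993 overlap on chromosome 4 in a family of similar genes, so their regions are not separate and may be uncertain.

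In all, 449 of 20851 protein-coding genes off chromosome 15 (2.15%) had a region listed only at 0.5 µM within 1 kb of an end, against 489 (2.35%) for the 0.1 µM set and 933 (4.47%) for the 1 µM set. Of the 449, 339 (75.5%) had no 0.1 or 1 µM region at either end. The regions were chosen for sharing no base with a 0.1 or 1 µM region, so this share depends in part on the rule. No like share is given for the other sets or for all genes, so whether 75.5% is high or low cannot be said. In the other 110 genes a region of another dose lay at an end as well. Of 426 genes in 17 lists of pathways and cell type markers, 11 (2.58%) had such a region, near the 2.15% of all genes.

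The named members of the lists were scattered. Among replication and cell cycle genes 3 of 36 had a region: Mki67 (chr7:135716444-135716642, score 10), the mitotic kinase gene Cdk1 (score 6) and the S phase transcription factor gene E2f1 (score 4). Each of these also had a 0.1 or 1 µM region at an end, at gaps of 306, 345 and 207 bp. Among AP-1 and immediate early genes 2 of 25 had one, Dusp1, a MAP kinase phosphatase gene (chr17:26507753-26508013, score 5, 408.8 kb from another list), and Ier2 (score 12, gap 1.08 kb). Among p53 and DNA damage genes Brca1 was the single member of 34, described above. Prdx3, a mitochondrial peroxiredoxin gene, was 1 of 31 NRF2 and antioxidant genes (score 7, gap 478 bp). Ern1, the gene of the unfolded protein sensor IRE1, was 1 of 16 (score 8), the glycolytic gene Pgam1 1 of 27 (score 7), and Hoxa10 1 of 30 Hox genes (score 6, gap 227.7 kb). Cebpb, a liver transcription factor gene, was 1 of 25 genes of hepatocyte identity (score 7) and lay in the chromosome 2 run.

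The remaining 9 lists had none at a gene end. These were CTCF, cohesin and chromosome structure (0 of 21), chromatin remodelling and histone modification (0 of 37), metal handling and heat shock (0 of 18), the aryl hydrocarbon receptor and xenobiotic enzymes (0 of 20), cytosolic ribosomal proteins (0 of 29) and Wnt, TGF-beta and Notch signalling (0 of 30). The markers of immune cells (0 of 17), of stellate cells, fibroblasts and endothelium (0 of 16) and of neurons (0 of 14) had none either. At a background of 2.15%, a list of this size would hold fewer than 1 such gene. Arid1b belongs to the chromatin remodelling list, and its regions lay in the gene body. Of the 25 hepatocyte genes, 3, 3 and 5 had any region at an end in the 0.1, 0.5 and 1 µM lists.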

How the data were processed

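ATAC-seq of Hepa-1c1c7 cells gave 3 deposited region lists in BED form with a score per region, a whole number whose scale the authors do not state. Bowtie2, Picard, MACS2 and mm10 appear, with no role, in the submitters' processing notes. For the threshold, the Tn5 shift, the use of the control and the pooling of libraries, no statement is given in the sources used here. An unexplained q tag and the words filtered, BL and unique stand in each list's name. Overlapping regions were merged at 1 bp or more, touching regions kept apart. Midpoints were compared with RefSeq genes of GRCm38.p6 (20851 protein-coding genes off chromosome 15), and regions with 20494 RefSeq promoter windows of 16829 genes. Coordinates are 1-based mm10. Described genes are those with the highest scores, list members, genes with 3 or more regions, full windows, and the smallest and largest gaps, the last added later; 1 such gene is not reported here. No test was run, because each dose has 1 list. Python 3.11.15, pandas 2.3.3, numpy 2.4.6, scipy 1.17.1 and matplotlib 3.10.9 were used, and the merging was checked on simulated data. The regions described and the gene lists were chosen with earlier results of these data known. The runs, the 20-region windows, the width classes and the comparison without full windows were added after the data had been seen. Alternatives covered merging, score, width, gene windows and gene types.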

Additional observations from a re-analysis of the deposited data

How the results depend on the processing

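Of 60 alternative values of 10 results, 42 stayed within the limits set (1.5 times for counts, the counting interval for shares), 18 moved and 0 changed sign. The count of 1346 regions became 2406 when sharing needed a reciprocal overlap of 50%, 252 in the stronger and 216 in the wider 50% of the list. The share at gene ends (28.8%) was 23.0% with a window of 500 bp, 35.5% with 2.5 kb, 34.0% with all gene types and 34.4% without the 40 full windows, and that inside genes (34.9%) was 39.0%, 30.3%, 38.6% and 30.9%. The share between genes (36.3%) was 27.5% with all gene types. Without the full windows, the difference at gene ends was 17.1 points from the 0.1 µM set and 9.45 points from the 1 µM set. The 449 genes became 1143 with the gene body and 10 kb. The 264 regions within 1 kb of another list became 445 within 5 kb and 150 without the full windows. The 40 windows became 61 at 2 Mb. The wider gene windows and looser distances raise their counts by construction, and the window of 500 bp lowers the share at gene ends. Keeping the stronger or wider 50% of the list can only lower the count of regions. A stricter rule for sharing can only raise that count. Adding all gene types can only raise the share at gene ends and lower that between genes. The full windows were chosen by their count of the set's own regions, so the shifts without them depend in part on that choice. The cause of the other shifts was not tested.

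Each dose has 1 list, so leaving out a replicate was not an option. No paired analysis was possible because no column belongs to a single library. Depth is unknown, and presence or absence at low scores cannot be set against read counts.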

Other observations

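The regions lay in gene-rich surroundings. A median of 12 protein-coding genes (quartiles 7 and 21) lay within 500 kb of a region listed only at 0.5 µM. Genes were placed by their end of lower coordinate, whatever the strand. The median was 6 at 0.1 µM only, 9 at 1 µM only and 8 for regions listed at every dose. In the windows with at least 20 regions the median was 10, and in those with fewer than 5 it was 12. Some were near annotated miRNA hairpins, and no count for the other sets is given. The region at chr10:122985475-122985791 (score 7) covered the hairpin of Mirlet7i, a member of the let-7 family. Other regions lay 284 bp from Gm38670 (score 8), 346 bp from Mir1932 (score 9), 690 bp from Mir7655 (score 11) and 703 bp from Gm51271 (score 14).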
